A study of Mus musculus with 24 samples.

Results

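Dose-response shapes were described in all 24 of the 24 liver RNA-seq libraries of the series. The libraries fall into 4 groups of 6 by the concentration of dichloroacetic acid (DCA) in the drinking water, 0 (control), 1, 2 and 3.5 g/L, read from each library's column name. The livers came from male B6C3F1 mice, a hybrid strain, aged 4 weeks and exposed for 6 days, and the labels name no allele and no agent other than DCA. RNA came from pieces of mixed lobes, so each library is a whole tissue in which fewer cells of a type and less RNA per cell cannot be told apart. Of 15582 genes in the table, the 6540 that reached 0.5 RPKM (read counts scaled to gene length and to library depth) in at least 6 libraries were fitted. The labels do not state that every library is another mouse, and p-values therefore reflect only how far these libraries vary, which may be technical.

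DCA is a by-product of water chlorination and an inhibitor of pyruvate dehydrogenase kinase, and in mice it is known for enlarging the liver and for causing liver tumours. A dose response can climb evenly, stay flat below a threshold, level off, or turn back, and each form places the change of a gene in a different range of dose. Several regulators of liver transcription are read through well-known targets. PPARα is a nuclear receptor that senses fatty acids and drives peroxisomal and mitochondrial fat oxidation, NRF2 drives antioxidant genes, CAR and PXR drive drug metabolism, and pulsed growth hormone keeps up the genes that male livers express more than female livers.

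Shape was read from 1 fit per gene of log2(RPKM + 1) on dose with linear, quadratic and cubic terms, in which 6 libraries per dose share 1 estimate of spread. The slope is given in log2 units per g/L. Curvature is given as the bow, the height in log2 units of the fitted parabola at 1.75 g/L above the straight line that joins its values at 0 and 3.5 g/L. A positive bow means that the response came early or turned down, and a negative bow that it came late or turned up. The cubic term is given as the distance in log2 units of the mean at 2 g/L from the parabola. All calls are limma adjusted p under 0.05 over the 6540 genes, and differences of log2(RPKM + 1) understate the change of genes at low RPKM.

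Most genes that varied with dose did so without a called bend, and the usual place of change was the interval from 1 to 2 g/L. Expression varied with dose in 3916 genes (59.9%). The linear term was called in 2634 rising (40.3%) and 888 falling genes (13.6%), the quadratic term in 973 genes with a positive bow (14.9%) and 280 with a negative bow (4.28%), and the cubic term in 336 genes (5.14%). The class called straight here, with a called slope and neither bend called, held 2219 genes (33.9%), 1648 rising (25.2%) and 571 falling genes (8.73%); curvature was not shown to be absent in them. Responses that levelled off numbered 521 (7.97%), 427 rising (6.53%) and 94 falling (1.44%), and responses that steepened towards 3.5 g/L numbered 83 (1.27%), 54 rising (0.826%) and 29 falling (0.443%). Steps, with a called slope and cubic term and an uncalled quadratic term, numbered 198 (3.03%), 154 rising (2.35%) and 44 falling (0.673%). The parabola turned inside the dose range, with both arms at least 25% of its range, in 610 genes (9.33%), 483 peaks (7.39%) and 127 dips (1.94%). The remaining 285 varying genes (4.36%) had no shape by these rules, with 179 rising (2.74%) and 106 falling (1.62%).

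**Figure D1:**
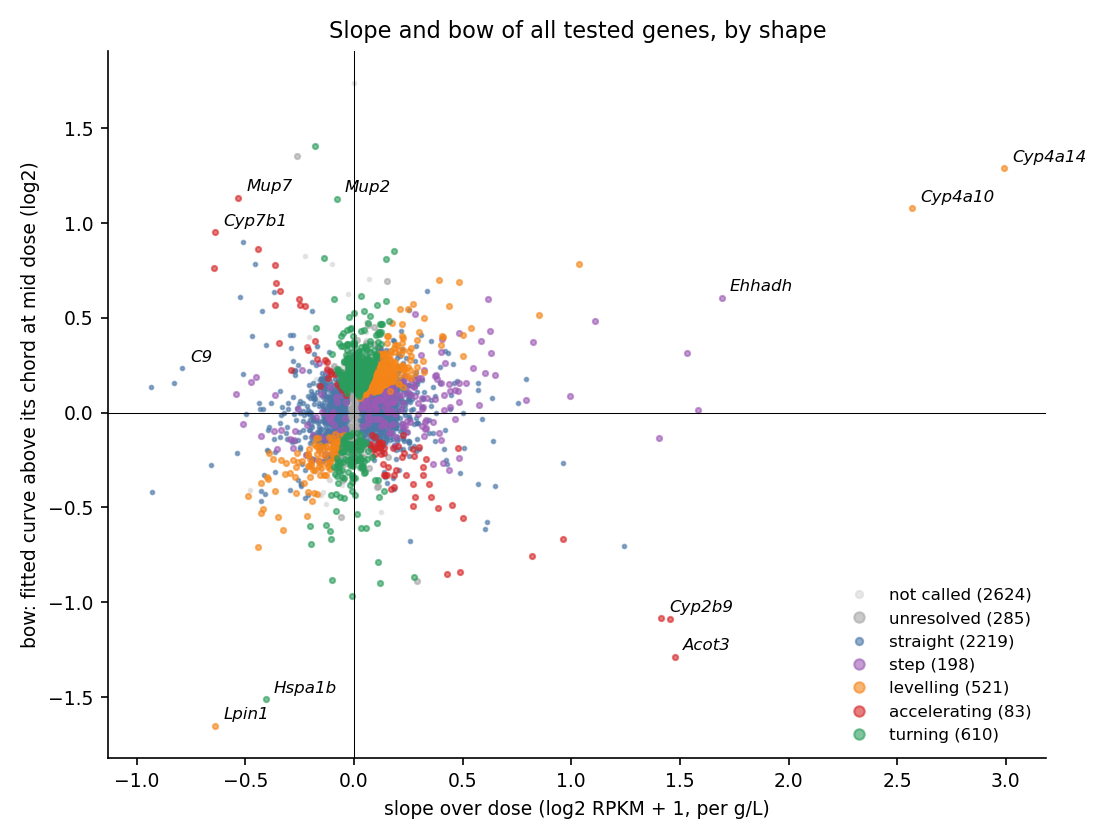
Fitted slope (x axis, log2 per g/L) against bow (y axis, log2 units at 1.75 g/L) for the 6540 genes, 1 point per gene, with the genes that varied with dose coloured by shape class and the largest labelled. Rising genes that level off lie to the upper right, late risers such as Acot3 to the lower right, and peaks and dips above and below a slope near 0.

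Among the 3916 varying genes the interval with the largest difference between dose means was 1 to 2 g/L in 1962 (50.1%), against 42.6% of all tested genes. The interval was 0 to 1 g/L in 27.9% of the varying genes and 2 to 3.5 g/L in 22%. Differences were not divided by the width of the interval, and 2 to 3.5 g/L is the widest. For genes that changed by at least 0.5 log2 units between 0 and 3.5 g/L, the share of that change already present at each dose sums up the classes. Straight rising genes were at a median of 24.2% at 1 g/L and 69.3% at 2 g/L, levelling rising genes at 43.8% and 101%, and step rising genes at 6.47% and 84.5%. Rising genes that steepened were at −5.57% at 1 g/L and 35.5% at 2 g/L. For the falling classes these medians were 28.4% and 61.8% for straight, 47.5% and 96.7% for levelling, 1.16% and 88.1% for steps and −15.6% and 0.792% for the steepening genes.

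Libraries were similar in depth, at about 23500000 to 27900000 reads estimated from the steps between low values. Every library carried hepatocyte transcripts at high levels, with albumin (Alb) at 11892 to 23479.9 RPKM and Hnf4a, a hepatocyte master regulator, at 77.7 to 133 RPKM. The titles also bear the tags L1, L2 and L3, which the labels leave unexplained. Controls are all L1, the 1 g/L group is 3 L1 and 3 L2, the 2 g/L group is all L2 and the 3.5 g/L group is all L3, so at 3.5 g/L tag and dose cannot be told apart. Dose contrasts within a tag, chosen after the data were seen, exist for 1 g/L against control (L1, 3 against 6) and for 2 against 1 g/L (L2, 6 against 3). They called 80 genes higher (1.22%) and 92 lower (1.41%) at 1 g/L, and 693 higher (10.6%) and 263 lower (4.02%) at 2 g/L. Within the 1 g/L group, limma called no gene (0%) between the tags, with 459 at an unadjusted p under 0.05. The deposited scaling leaves a shift of all genes, with median differences from control of 0.052, 0.12 and 0.097 at 1, 2 and 3.5 g/L. Scaling that removes it (median-ratio factors or quantile normalization) lowers the share of rises among called slopes from 74.8% to 50.5% or 48.1%, and the share of positive bows among called bends from 77.7% to 40.6% or 50.4%. Small rises and small positive bows are therefore relative to the scaling.

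PPARα targets rose steeply between 1 and 2 g/L and little before, and the 4 genes with the largest range of dose means, Cyp4a14, Cyp4a10, Ehhadh and Acot1, are among them. Of 41 tested list members, 41 had a called rising slope (all genes, 40.3%), and the cubic term was called in 30 (all genes, 5.14%). By class, 23 were steps, 9 levelled off, 6 were straight and 3 steepened. The median differences from control were 0.12, 1.22 and 1.39 at 1, 2 and 3.5 g/L. Under median-ratio and quantile scaling 40 members had a rising slope in each, and 26 and 24 were steps. The step count fell to 10 when 1 g/L was represented only by its L1 libraries and to 3 with only its L2 libraries, while slopes were called in 41 members either way. Levelling members numbered 3 without the 2 g/L library 75 and 15 without library 78.

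Cyp4a14, a fatty acid omega-hydroxylase used as a PPARα marker, lies on GRCm38 chromosome 4, 115486200 to 115496142, minus strand. Its level was 0.0566 to 2.84 RPKM in controls (median 0.595), 0.708 to 6.62 at 1 g/L (median 2.17), 173 to 1127 at 2 g/L (median 746) and 737 to 1467 at 3.5 g/L (median 1126). Controls and 1 g/L overlapped, 2 and 3.5 g/L overlapped, and the lowest library at 2 g/L was far above the highest at 1 g/L. The gene stood at 9.26% of its rise at 1 g/L and 90.9% at 2 g/L, on the log2(RPKM + 1) scale. Its slope was 2.99 log2 per g/L, SE 0.11, adjusted p = 1.03e-15, and its mean at 2 g/L lay above the parabola by 1.97, SE 0.17, adjusted p = 2.41e-07. By construction so large a step at 2 g/L also bends the parabola, and Cyp4a14 had a called bow (1.29, SE 0.31, adjusted p = 0.00775), which was not called without the 2 g/L library 75 (0.94, adjusted p = 0.0521). Within tags the difference was 0.33 from 0 to 1 g/L (adjusted p = 0.757) and 7.04 from 1 to 2 g/L (adjusted p = 1.35e-09).

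Ehhadh, the peroxisomal bifunctional enzyme of beta-oxidation, lies on chromosome 16, 21761287 to 21787807, minus strand. It was at 24.2 to 36.4 RPKM in controls (median 30.9), 30.1 to 43.7 at 1 g/L (median 41), 165 to 1559 at 2 g/L (median 1025) and 733 to 1819 at 3.5 g/L (median 1154). The separation was again between 1 and 2 g/L, and library 78 was the lowest of the 2 g/L group for both genes. Ehhadh had a slope of 1.69 log2 per g/L, SE 0.096, adjusted p = 1.62e-12, and stood at 6.56% of its rise at 1 g/L and 89.2% at 2 g/L. Cyp4a10, a close relative of Cyp4a14, reached 9.21% and 90.4%, and the peroxisomal thiolase Acaa1b 15.7% and 103%. Cyp4a31 and the acyl-CoA thioesterases Acot1 and Acot2 were at 5.24%, 4.09% and 0.365% at 1 g/L and at 82.4%, 73.7% and 71% at 2 g/L. Members of the Cyp4a and Acot clusters are similar in sequence and may share reads.

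Aldh3a2, which oxidizes fatty aldehydes, had the same form with a smaller range, at 14.4% and 87.3% of its rise. Fgf21, a hormone secreted in fasting under PPARα, was classed as straight from low levels, 0.111 to 0.449 RPKM in controls (median 0.222), 0.143 to 0.466 at 1 g/L (median 0.225), 0.344 to 0.984 at 2 g/L (median 0.598) and 0.705 to 1.44 at 3.5 g/L (median 0.888). Its slope was 0.19 log2 per g/L, SE 0.028, adjusted p = 2.4e-06.

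**Figure D2:**
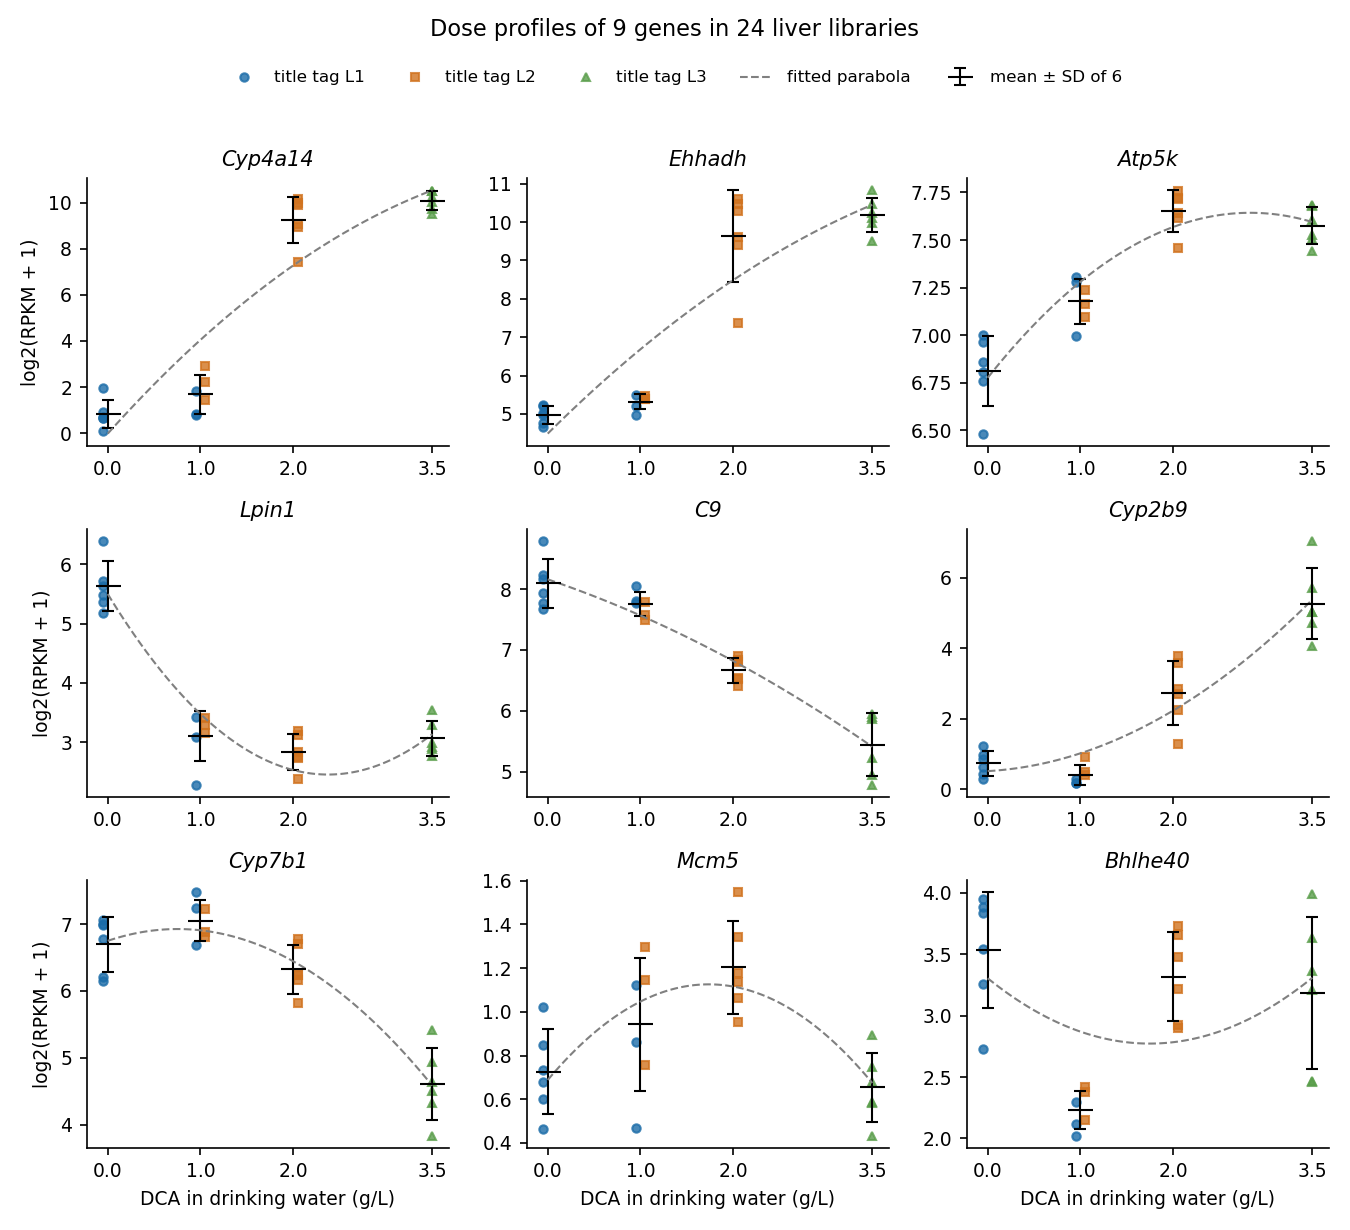
Log2(RPKM + 1) of 9 genes (y axes) against DCA in g/L (x axes), with 1 point per library marked by title tag, the mean and SD of the 6 libraries per dose as bars and the fitted parabola as a dashed line. Cyp4a14 and Ehhadh jump between 1 and 2 g/L, Lpin1 reaches its low level at 1 g/L, Cyp2b9 and Cyp7b1 change most after 2 g/L, and Mcm5 and Bhlhe40 turn back.

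Ccnd1, the G1 cyclin that starts division, rose over the same interval and had a lower median at 3.5 than at 2 g/L. Its level was 3.35 to 5.15 RPKM in controls (median 4.33), 4.02 to 6.53 at 1 g/L (median 4.22), 11.2 to 22.4 at 2 g/L (median 16.5) and 6.47 to 16.7 at 3.5 g/L (median 11.8). No library at 2 or 3.5 g/L was as low as the highest control, and at 3.5 g/L the lowest library was just under the highest at 1 g/L. The cubic distance was 0.46, SE 0.074, adjusted p = 0.000696, and the share of the 3.5 g/L change was 12.1% at 1 g/L and 136% at 2 g/L. Within tags it differed by −0.0072 from 0 to 1 g/L (adjusted p = 0.992) and by 1.40 from 1 to 2 g/L (adjusted p = 0.000164).

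Genes of fatty acid and triglyceride synthesis included rising steps. Of 27 tested list members, 18 rose (all genes, 40.3%) and 3 fell (all genes, 13.6%), and 9 were rising steps (all genes, 2.35%). The 9 were Me1, Fasn, Mogat1, Elovl5, Gpam, Acsl3, Acacb, Fads2 and Agpat3. The list medians were −0.0029, 0.35 and 0.47 at 1, 2 and 3.5 g/L. With only L2 libraries at 1 g/L, 0 members were steps and 14 were straight, so which of these forms they take depends on that group.

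Fasn, the fatty acid synthase, was at 22.4 to 44 RPKM in controls (median 30.1), 18.3 to 37.7 at 1 g/L (median 22), 43.1 to 99.8 at 2 g/L (median 62.3) and 56.1 to 116 at 3.5 g/L (median 86). The range at 1 g/L reached below that of the controls, and the ranges at 2 and 3.5 g/L overlapped the controls only at 2 g/L. The share of its rise was −25.6% at 1 g/L and 66.9% at 2 g/L. Me1, the malic enzyme that supplies NADPH for lipid synthesis, was at 10.6% and 83.7%, with a slope of 0.65 log2 per g/L, SE 0.052, adjusted p = 4.51e-10. Mogat1, a monoacylglycerol acyltransferase, was listed at or below 0.0594 RPKM in every control and stood at a median of 1.72 RPKM at 2 g/L. Elovl3, a fatty acid elongase that is also male-biased, went the other way and was classed as straight, at 168 to 259 RPKM in controls (median 220.5), 146 to 216 at 1 g/L (median 183), 28.8 to 89.6 at 2 g/L (median 76.6) and 14.8 to 57.6 at 3.5 g/L (median 31.4). Its slope was −0.83 log2 per g/L, SE 0.068, adjusted p = 6.58e-10, with no overlap between the 2 lower and the 2 higher doses.

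The falling steps with the largest ranges included secreted liver proteins. C8b, a subunit of the terminal complement complex, was at 119 to 172 RPKM in controls (median 147), 122 to 154 at 1 g/L (median 127), 58 to 84.6 at 2 g/L (median 60.6) and 34.2 to 56.2 at 3.5 g/L (median 39.8). Controls and 1 g/L overlapped, and neither overlapped the higher doses. It had completed 7.94% of its fall at 1 g/L and 62.4% at 2 g/L. Coagulation factor F11 had completed 1.38% and 58.7%, and apolipoprotein Apoa4 4.76% and 86.7%. The receptor Gpr110 and the lysyl oxidase Loxl4 were low in RPKM and had completed 80.2% and 60.7% at 2 g/L.

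As sets, the steps were set beside the contrasts within tags, which make no comparison across tags. Of the 154 rising steps, 151 were higher at 2 than at 1 g/L within L2, and 150 were called higher (all genes, 10.6%), with a median of 0.57. From 0 to 1 g/L within L1 their median was −0.022 and 3 were called in either direction. Of the 44 falling steps, 40 were lower within L2 and 39 called lower (all genes, 4.02%), with a median of −0.60. The 1 and 2 g/L values that define a step are shared with these contrasts, so the counts describe where within the design the change lies and are not independent of the class.

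Genes of the respiratory chain rose, most of them as straight or levelling responses. Of 63 tested nuclear genes of oxidative phosphorylation, 62 rose (all genes, 40.3%), 33 as straight (all genes, 25.2%) and 28 as levelling (all genes, 6.53%). The list medians were 0.22, 0.46 and 0.52 at 1, 2 and 3.5 g/L, against 0.052, 0.12 and 0.097 for all genes. Slopes were called in 58 members with median-ratio scaling and 57 with quantile normalization, but levelling was called in 7 and 19 of them. On a log2(dose + 1) axis 0 members levelled off, and without the 2 g/L library 75 the count was 16.

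Atp5k, a small subunit of ATP synthase, was at 88.4 to 127 RPKM in controls (median 113), 126 to 157 at 1 g/L (median 146), 175 to 216 at 2 g/L (median 204) and 173 to 205 at 3.5 g/L (median 189). Its controls lay below every library of 2 and 3.5 g/L, which overlapped each other. The bow was 0.33, SE 0.061, adjusted p = 0.0016, and 48.1% of the rise was present at 1 g/L and 110% at 2 g/L. Cox5b of cytochrome oxidase and Ndufb8 of complex I had the next largest ranges among members that levelled off, with bows of 0.22 (adjusted p = 0.0181) and 0.19 (adjusted p = 0.0377). Proteins of the mitochondrial ribosome, which translates the mitochondrial genome, rose in 68 of 76 tested members (all genes, 40.3%), 32 as straight (all genes, 25.2%) and 28 as levelling (all genes, 6.53%). With median-ratio scaling 53 rose, and with quantile normalization 39. Mrps18b had the largest range in this list, with a slope of 0.25 log2 per g/L, SE 0.026, adjusted p = 1.76e-08. In the citric acid cycle 12 of 16 members rose (all genes, 40.3%), 8 as straight (all genes, 25.2%) and 3 as steps (all genes, 2.35%), Idh1 and Cs among the steps.

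Nr1d1 and Apoc2 rose from the lowest dose on and levelled off. Nr1d1, the clock repressor REV-ERBα, was at 1.05 to 2.17 RPKM in controls (median 1.6), 3.22 to 5.71 at 1 g/L (median 3.88), 6.94 to 17.8 at 2 g/L (median 12.1) and 13 to 25 at 3.5 g/L (median 17.3). The 1 g/L libraries lay above every control and below every library of 2 g/L. Its slope was 0.85 log2 per g/L, SE 0.045, adjusted p = 5.51e-13, its bow 0.51, SE 0.13, adjusted p = 0.00913, and it had completed 34.2% of its rise at 1 g/L. Apoc2, the cofactor of lipoprotein lipase, was at 84.9 to 133 RPKM in controls (median 107), 156 to 182 at 1 g/L (median 175), 197 to 247 at 2 g/L (median 221) and 178 to 210.1 at 3.5 g/L (median 203). It had completed 76.6% at 1 g/L and 118% at 2 g/L, and its bow was 0.55, SE 0.065, adjusted p = 2.06e-05. Within L1 both were called higher at 1 g/L than in controls, by 0.88 (adjusted p = 0.0227) for Nr1d1 and 0.69 (adjusted p = 0.000613) for Apoc2.

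Lpin1 was near its final level at 1 g/L. It encodes a phosphatidate phosphatase of triglyceride synthesis that is also a transcriptional coactivator, and lies on chromosome 12, 16535669 to 16610966, minus strand. It was at 35.2 to 82.7 RPKM in controls (median 46.2), 3.87 to 9.73 at 1 g/L (median 8.34), 4.19 to 8.12 at 2 g/L (median 5.97) and 5.81 to 10.7 at 3.5 g/L (median 6.78). Every treated library lay below every control, and the 3 treated groups overlapped. The bow was −1.65, SE 0.15, adjusted p = 6.86e-07, with 98.4% of the fall complete at 1 g/L and 109% at 2 g/L. Within L1 the difference at 1 g/L was −2.70 (adjusted p = 4.03e-07).

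Other falling genes levelled off over 0 to 2 g/L. Prothrombin (F2) was at 416 to 458 RPKM in controls (median 449), 305 to 334 at 1 g/L (median 321), 195 to 284 at 2 g/L (median 225) and 193 to 232 at 3.5 g/L (median 228). Each dose up to 2 g/L had its own range, and 2 and 3.5 g/L overlapped. Its bow was −0.32, SE 0.058, adjusted p = 0.0014, with 46.8% complete at 1 g/L and 92.8% at 2 g/L. Mug1, a protease inhibitor of plasma, had a bow of −0.44, SE 0.074, adjusted p = 0.00071, with 35% and 94.1% complete. The carboxylesterase Ces1b had 34.8% and 111%. Herpud1, a component of ER-associated degradation, was at 87.1 to 194 RPKM in controls (median 125), 47.5 to 95.6 at 1 g/L (median 60.6), 26.2 to 48.6 at 2 g/L (median 47) and 26.8 to 65.2 at 3.5 g/L (median 42.1). The shares complete were 63.8% and 102%, and the bow was −0.71, SE 0.17, adjusted p = 0.00846.

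Antioxidant genes driven by NRF2 rose in most members, the larger number as straight responses. Of 25 tested members 19 rose (all genes, 40.3%), 15 as straight (all genes, 25.2%) and 3 as steps, Ephx1, Me1 and Gsr. List medians were 0.18, 0.56 and 0.65 at 1, 2 and 3.5 g/L. Under median-ratio and quantile scaling 16 and 17 rose, and 1 fell in each. Without the 2 g/L library 78, 8 members were straight and 7 were steps. Gsta2, a glutathione transferase, was at 1.08 to 2.81 RPKM in controls (median 1.87), 1.75 to 5.95 at 1 g/L (median 2.78), 5.46 to 13.5 at 2 g/L (median 8.51) and 11.9 to 22.3 at 3.5 g/L (median 15.8). Its slope was 0.76 log2 per g/L, SE 0.057, adjusted p = 1.29e-10, and its bow 0.052, SE 0.16, adjusted p = 0.85. Gsta1 had a slope of 0.79 log2 per g/L, SE 0.067, adjusted p = 8.8e-10 from lower levels. Reads of these near-identical copies may be divided uncertainly. Ephx1, microsomal epoxide hydrolase, had a slope of 0.63 log2 per g/L, SE 0.047, adjusted p = 1.16e-10 and had completed 22% and 84.8% at 1 and 2 g/L.

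G0s2 was also among the 4 straight risers with the largest ranges. G0s2, an inhibitor of adipose triglyceride lipase, was at 7.91 to 41.3 RPKM in controls (median 26.8), 7.81 to 26 at 1 g/L (median 13.9), 19.7 to 78.3 at 2 g/L (median 51.3) and 50.2 to 109 at 3.5 g/L (median 86.9). The 1 g/L libraries lay in the lower part of the control range, and its bow of −0.58 missed the threshold (adjusted p = 0.17).

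Complement and coagulation genes fell with few exceptions. Of 32 tested members 30 fell (all genes, 13.6%) and 0 rose, and 30 fell under both scalings and with any 1 library left out. By class 15 were straight, 7 levelled off, 4 steepened and 4 were steps. List medians were −0.19, −0.54 and −0.84 at 1, 2 and 3.5 g/L. C9, the pore-forming subunit of the terminal complement complex, lies on chromosome 15, 6445327 to 6498751, plus strand. It was at 204 to 441 RPKM in controls (median 266), 180.0 to 266 at 1 g/L (median 219), 83.7 to 118 at 2 g/L (median 101) and 26.5 to 60.6 at 3.5 g/L (median 46.8). Only controls and 1 g/L overlapped, and each higher dose lay below the one before. The slope was −0.79 log2 per g/L, SE 0.053, adjusted p = 2.02e-11 and the bow 0.24, SE 0.15, adjusted p = 0.275. C4b of the classical pathway was also straight, at 124 to 193 RPKM in controls (median 150.1), 71.9 to 91.2 at 1 g/L (median 75), 52.2 to 72.5 at 2 g/L (median 69.7) and 30 to 49.6 at 3.5 g/L (median 35.3). Its slope was −0.54 log2 per g/L, SE 0.032, adjusted p = 3.82e-12, with 48.1% of the fall at 1 g/L and 60.5% at 2 g/L.

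The fibrinogen genes of this list, named after their values were seen, were flat up to 2 g/L and lower at 3.5 g/L. Fga was at 1133 to 2167 RPKM in controls (median 1245), 1314 to 1509 at 1 g/L (median 1399.7), 1013 to 1944 at 2 g/L (median 1409) and 709.6 to 1038 at 3.5 g/L (median 867). All 3.5 g/L libraries lay below every control, and the other ranges overlapped. Fgb and Fgg had bows of 0.34, SE 0.11, adjusted p = 0.0357 and 0.33, SE 0.12, adjusted p = 0.0499. Control 8 was far above the other controls for all 3. Without that library the bows were larger, at 0.46 for Fga, 0.43 for Fgb and 0.41 for Fgg (adjusted p = 0.00385, 0.00394 and 0.00921). In other settings the late steepening was fragile. The list held 4 steepening members, but 0 with either scaling and 0 without control 3 or without the 2 g/L library 75. The acute-phase list, which holds the fibrinogens too, fell in 12 of 18 members (all genes, 13.6%), with 8 straight and 4 steepening (Lrg1 and the fibrinogens) and medians of −0.28, −0.23 and −1.04.

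**Figure D3:**
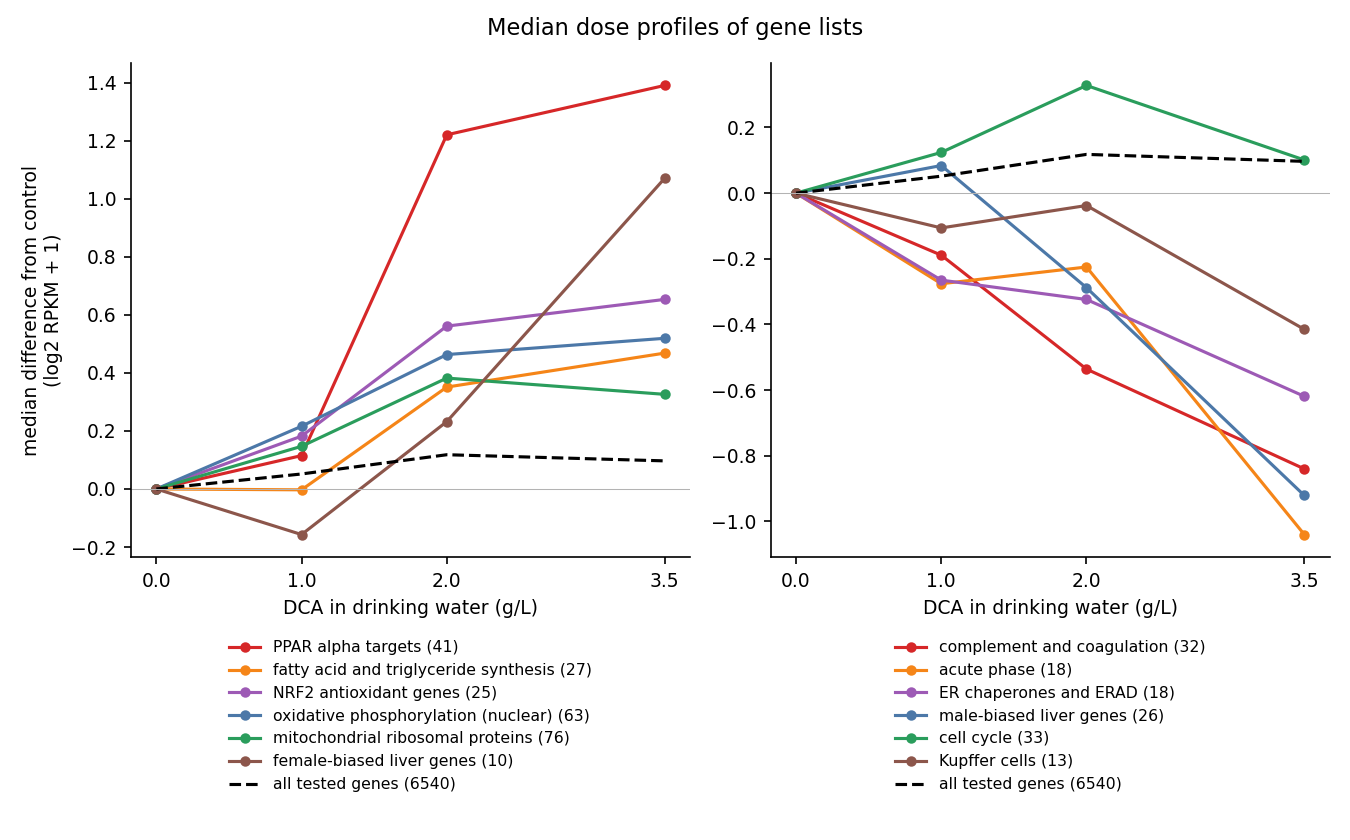
Median over the tested members of selected gene lists of the difference from control in log2(RPKM + 1) (y axis) at 1, 2 and 3.5 g/L (x axis), with all 6540 tested genes as a dashed line, rising lists on the left and mostly falling lists on the right. The PPARα list goes from 0.12 to 1.22 between 1 and 2 g/L, the respiratory chain list from 0.22 to 0.46, and the complement and coagulation list falls at each dose to −0.84.

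ER chaperones and degradation factors, which fold or remove proteins in the secretory pathway, fell with dose in 11 of 18 tested members (all genes, 13.6%), 10 of them as straight (all genes, 8.73%). List medians were −0.27, −0.32 and −0.62. Falls numbered 13 and 15 under median-ratio and quantile scaling, where falls over all 6540 genes also rose, from 888 to 1613 and 1614. Of the 18, 14 had a RefSeq promoter window, and 7 of the 14 (50%) carried the ER stress response element, searched on both strands as CCAAT and CCACG with any 9 bases between them, against 11 of 4907 tested genes with a window (0.224%). The element contains a CCAAT box, which alone was in 43.8% of windows. All 7 genes with the element were straight and falling, which was also the most frequent class in the list (10 of 18). The shapes of genes outside the list that carry the element are not given here. A match is a description of letters and not of a factor's binding, and it was picked for display after the shares of 20 motifs were seen. For 4 of the 7 genes the stretch around the element follows with the element in capitals. The windows are RefSeq sequence on GRCm38.p6, given 5′ to 3′ along the gene. They lie at chr2:34772005-34772063 on the plus strand, chr10:86705618-86705676 on the minus strand, chr8:84847055-84847113 on the minus strand and chr15:88819500-88819558 on the plus strand. In Calr and Creld2 the element reads on the opposite strand.
Hspa5: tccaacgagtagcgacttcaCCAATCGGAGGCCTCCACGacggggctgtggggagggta
Hsp90b1: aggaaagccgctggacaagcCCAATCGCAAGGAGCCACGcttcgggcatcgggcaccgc
Calr: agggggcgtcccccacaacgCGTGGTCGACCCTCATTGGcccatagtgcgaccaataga
Creld2: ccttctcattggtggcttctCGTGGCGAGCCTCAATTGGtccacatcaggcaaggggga

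Hspa5, the master chaperone BiP, was at 245 to 580.0 RPKM in controls (median 397), 216 to 456 at 1 g/L (median 321), 243 to 536 at 2 g/L (median 294) and 206 to 270.2 at 3.5 g/L (median 233). All groups overlapped, with the 3.5 g/L libraries at or below the lower part of the control range. Its slope was −0.19 log2 per g/L, SE 0.052, adjusted p = 0.00373. Calr, the lectin chaperone calreticulin, was at 268 to 414 RPKM in controls (median 295), 227 to 293 at 1 g/L (median 251), 172 to 310.3 at 2 g/L (median 197) and 143 to 204 at 3.5 g/L (median 173). Its 3.5 g/L libraries lay below every control, and the slope was −0.23 log2 per g/L, SE 0.034, adjusted p = 3.83e-06. Hsp90b1 had a slope of −0.22 log2 per g/L, SE 0.041, adjusted p = 0.000116, and Creld2, a stress-induced ER protein, −0.25 log2 per g/L, SE 0.087, adjusted p = 0.0179. Derl3 had the largest range in the list, with a slope of −0.43 log2 per g/L, SE 0.072, adjusted p = 2.27e-05.

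Among interferon-response genes straight falls and uncalled responses were equally frequent. Of 31 tested members 17 fell and 0 rose (all genes, 13.6% and 40.3%), 15 were straight (all genes, 8.73%) and 15 had no call. Named members were Ifi47 (slope −0.27 log2 per g/L, SE 0.033, adjusted p = 3.36e-07) and Isg15 (slope −0.27 log2 per g/L, SE 0.044, adjusted p = 1.51e-05). In the clock list of 12, 7 rose and 4 fell (all genes, 40.3% and 13.6%), and under either scaling 5 rose and 4 fell. These all-gene shares are those of the deposited scaling. Nr1d1 and Nr1d2, the REV-ERB repressors, levelled off while rising. Dbp, a clock output factor, was straight and rising at 0.156 to 0.312 RPKM in controls (median 0.216), 0.137 to 0.254 at 1 g/L (median 0.203), 0.279 to 2.55 at 2 g/L (median 1.25) and 0.419 to 14.6 at 3.5 g/L (median 3.96). Its slope was 0.57 log2 per g/L, SE 0.10, adjusted p = 6.28e-05, and single libraries at 3.5 g/L ranged widely. Nfil3 (slope −0.42 log2 per g/L, SE 0.047, adjusted p = 7.63e-08) and Arntl, the core activator BMAL1 (slope −0.29 log2 per g/L, SE 0.056, adjusted p = 0.000109), fell with no called bend. Time of collection is not given in the labels, and its part in clock gene levels was not tested.

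A group of genes stayed flat at 1 g/L and made the larger part of their rise after 2 g/L, over the widest interval of dose. Cyp2b9, a CAR target that is higher in female livers, lies on chromosome 7, 26173411 to 26210661, plus strand. It was at 0.226 to 1.32 RPKM in controls (median 0.676), 0.125 to 0.897 at 1 g/L (median 0.271), 1.45 to 12.6 at 2 g/L (median 5.83) and 15.8 to 129.5 at 3.5 g/L (median 31.4). Controls and 1 g/L overlapped, 2 g/L lay above both, and 3.5 g/L lay above 2 g/L, without overlap. Its slope was 1.41 log2 per g/L, SE 0.10, adjusted p = 8.96e-11 and its bow −1.08, SE 0.30, adjusted p = 0.015, and 44.3% of the rise was present at 2 g/L. With only the L2 libraries at 1 g/L the bow was −0.86 and no longer called (adjusted p = 0.0657).

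Cyp2a4, a female-biased steroid hydroxylase, had the same order of ranges, at 0.277 to 0.53 RPKM in controls (median 0.34), 0.0782 to 1.44 at 1 g/L (median 0.235), 1.81 to 12.1 at 2 g/L (median 4.29) and 22.9 to 92.8 at 3.5 g/L (median 32). Its bow was −1.09, SE 0.25, adjusted p = 0.00605. The thioesterase Acot3 was at 0.0143 to 0.0945 RPKM in controls (median 0.048), 0.0285 to 0.0836 at 1 g/L (median 0.0471), 0.665 to 8.26 at 2 g/L (median 2.68) and 16.6 to 62.7 at 3.5 g/L (median 29.4). Again 3 separate levels stood apart, and the bow was −1.29, SE 0.25, adjusted p = 0.00185, with 36.1% of the rise present at 2 g/L. Acot4, its neighbour in the gene cluster, had a bow of −0.67, SE 0.15, adjusted p = 0.00462. Acot3 and Acot4 thus differed in form from Acot1 and Acot2, which were steps with 73.7% and 71% present at 2 g/L. The difference in form between the copies was not tested.

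By list, 4 of 10 tested female-biased genes steepened while rising (all genes, 0.826%), Acot3, Cyp2b9, Cyp2a4 and Abcd2, and these also stand on the PPARα or CAR lists. By slope 6 of the 10 rose and 3 fell (all genes, 40.3% and 13.6%), and the list medians were −0.16, 0.23 and 1.07. Of 22 tested CAR and PXR targets 14 rose and 6 fell (all genes, 40.3% and 13.6%), with 8 straight risers (all genes, 25.2%) and 3 that steepened while rising (all genes, 0.826%), Cyp2b9, Cyp2a4 and the receptor gene Nr1i3 (CAR) itself. Cyp2b10, the CAR target most used as a marker, was at 0.0564 to 1.04 RPKM in controls (median 0.584), 0.0393 to 1.03 at 1 g/L (median 0.478), 0.0755 to 0.607 at 2 g/L (median 0.367) and 0.128 to 1.15 at 3.5 g/L (median 0.275). All groups overlapped and no term was called, with a slope of −0.051 log2 per g/L, SE 0.047, adjusted p = 0.376.

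Male-biased genes fell in 18 of 26 tested members (all genes, 13.6%), and most of that fall came late. List medians were 0.084, −0.29 and −0.92 at 1, 2 and 3.5 g/L. By class 12 were straight, 3 steepened and 3 were steps, but without the 2 g/L library 78, 7 were straight and 8 steepened, and without library 73 there were 0 steps. Cyp7b1, the oxysterol 7-alpha-hydroxylase, lies on chromosome 3, 18071950 to 18243338, minus strand. It was at 70.2 to 132 RPKM in controls (median 117), 102 to 177 at 1 g/L (median 133), 55.2 to 109 at 2 g/L (median 74.3) and 13.3 to 41.8 at 3.5 g/L (median 22.8). The 1 g/L libraries reached above the controls, and all 3.5 g/L libraries lay below every other library. The bow was 0.95, SE 0.17, adjusted p = 0.00143, and 18% of the fall was present at 2 g/L.

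Hsd3b5, a male-specific hydroxysteroid dehydrogenase, had a bow of 0.76, SE 0.25, adjusted p = 0.032, and Mup7, a major urinary protein, of 1.13, SE 0.37, adjusted p = 0.0325. The bow of Hsd3b5 was not called without control 3 or 5 or the 2 g/L library 76 or 77 (0.72 to 0.74), and that of Mup7 not without control 3 or 6 or the 2 g/L library 75, 76 or 77 (1.03 to 1.09). Mup21, also a urinary protein, was straight by these rules at 60.8 to 102 RPKM in controls (median 83.6), 43.9 to 115 at 1 g/L (median 96.9), 6.55 to 40.6 at 2 g/L (median 18.9) and 2.23 to 25.2 at 3.5 g/L (median 10.1). Its slope was −0.93 log2 per g/L, SE 0.11, adjusted p = 1.41e-07. Of 19 tested Mup genes 14 varied with dose (all genes, 59.9%). They are near-identical copies, so the values of single Mup genes are uncertain.

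**Figure D4:**
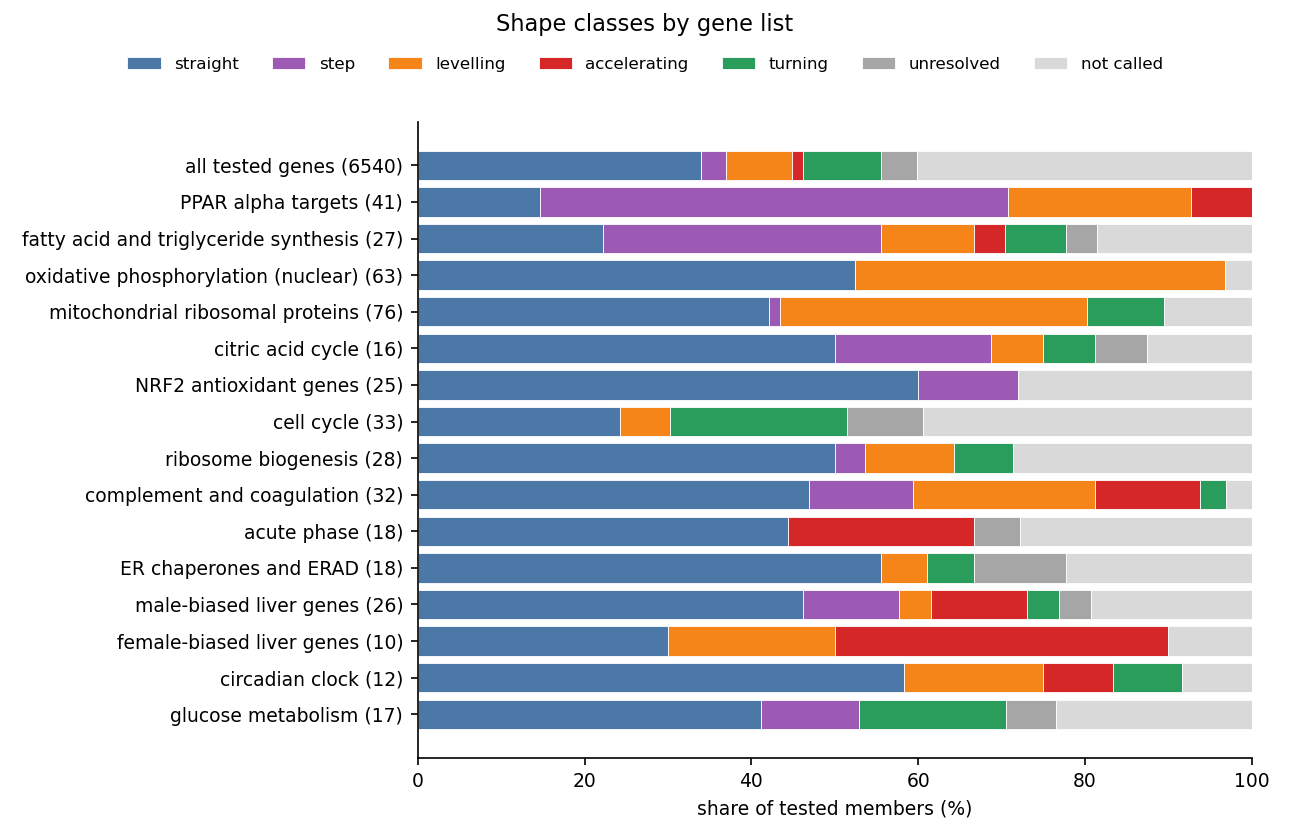
Share of the tested members of each gene list in each shape class, in percent (x axis, stacked bars, members tested in brackets), with all 6540 tested genes in the top bar. The PPARα list is mostly steps (23 of 41), the respiratory chain list is split between straight (33) and levelling (28), and the female-biased list has 4 of 10 that steepen.

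Contrasts of 1 and 2 g/L with both end doses were run for all tested genes, whatever their class. They did not set 1 against 2 g/L, so whether a turn lies at 1 or at 2 g/L was read from the means and not tested. A peak or dip is called resolved where the mean at 1 or 2 g/L is the extreme and differs from both control and 3.5 g/L. This held for 261 genes (3.99%): 158 peaks at 2 g/L (2.42%), 35 dips at 2 g/L (0.535%), 26 peaks at 1 g/L (0.398%) and 42 dips at 1 g/L (0.642%). Some of these lie outside the turning class. Within that class 158 of the 483 peaks and 54 of the 127 dips were resolved at either dose, and the others were not. The surplus of peaks at 2 g/L depended on scaling, with 85 peaks against 88 dips under median-ratio factors and 90 against 72 under quantile normalization. It also depended on 1 library, since 71 peaks at 2 g/L were resolved without the 2 g/L library 75. Within L2, 32 of the 158 peaks were called higher at 2 than at 1 g/L (all genes, 10.6%), a contrast that shares its values with the choice of these genes. From 0 to 1 g/L within L1, 1 of them was called. At 1 g/L itself 126 of them were higher in L2 than in L1, with 0 called and a median of 0.071 (all genes, 0.058). The contrasts that resolve a peak at 2 g/L set L2 against L1 and against L3, so tag differs along with dose in both.

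The replication helicase genes Mcm2 to Mcm7, which unwind DNA at the start of S phase and were named after their values were seen, all peaked at 2 g/L. Mcm5 was at 0.379 to 1.03 RPKM in controls (median 0.633), 0.385 to 1.46 at 1 g/L (median 0.997), 0.934 to 1.92 at 2 g/L (median 1.23) and 0.35 to 0.86 at 3.5 g/L (median 0.553). The 2 g/L libraries lay above every library of 3.5 g/L and above all but the highest control. It was higher at 2 g/L than in controls by 0.48 (SE 0.12, adjusted p = 0.00219) and than at 3.5 g/L by 0.55 (adjusted p = 0.0056). Mcm2 was at 0.426 to 0.831 RPKM in controls (median 0.658), 0.685 to 1.03 at 1 g/L (median 0.89), 0.872 to 1.52 at 2 g/L (median 1.01) and 0.398 to 0.857 at 3.5 g/L (median 0.674). There the 2 g/L libraries lay above every control and every 3.5 g/L library, with bow 0.32, SE 0.062, adjusted p = 0.00227. Mcm3, Mcm4 and Mcm7 had bows of 0.37, 0.44 and 0.32, and Mcm6 of 0.42, SE 0.12, adjusted p = 0.0215. Mcm2, Mcm3, Mcm4, Mcm5 and Mcm7 kept both the turning class and the resolved peak at 2 g/L under each alternative in which they were tested and with any 1 library left out, title tags as terms aside. The peak of Mcm6 was no longer resolved with no filter, under either scaling or without control 3, 5 or 8 or the 2 g/L library 73, 75 or 76, at bows of 0.36 to 0.42. Within tags no difference was called for any of Mcm2 to Mcm7. From 1 to 2 g/L within L2 they ran from 0.0055 (Mcm4, adjusted p = 0.983) to 0.17 (Mcm6, adjusted p = 0.597). At 1 g/L itself L2 was above L1 by 0.12 (Mcm2) to 0.26 (Mcm6), also not called. The comparisons of 2 g/L with control and with 3.5 g/L are across tags.

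Of 33 tested cell cycle genes 7 were resolved peaks at 2 g/L, the 6 Mcm genes and the licensing factor Cdt1 (all genes, 2.42%). Others in the list behaved differently. Cdc20 (slope 0.25 log2 per g/L, SE 0.075, adjusted p = 0.00632) and cyclin B1 (Ccnb1, slope 0.21 log2 per g/L, SE 0.066, adjusted p = 0.00839), both of mitosis, rose with no called bend, and Mcm10 fell (slope −0.40 log2 per g/L, SE 0.074, adjusted p = 8.05e-05). The proliferation marker Mki67 was at 0.771 to 1.5 RPKM in controls (median 1.04), 0.672 to 2.58 at 1 g/L (median 1.23), 0.876 to 3.16 at 2 g/L (median 1.94) and 0.584 to 3.29 at 3.5 g/L (median 1.32). All groups overlapped and no term was called. Within tags, 0 of 33 were called at 1 g/L and 2 higher and 1 lower at 2 g/L.

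E2F is the transcription factor family of S phase genes, and its site, searched on both strands as TTTCGCGC, was in 4 of 24 cell cycle genes with a promoter window (16.7%), in 5 of 109 resolved peaks at 2 g/L (4.59%) and in 36 of 4907 tested genes (0.734%). The 4 were Cdk1, which was not called, Mcm5, Mcm6 and Mcm7. Mcm5, Mcm6 and Mcm7 are counted in both the list and the resolved peaks, so these shares are not separate. The site was 1 of 20 motifs searched, and another E2F form among them is not given here. The stretches of Mcm5 and Mcm6 before the start site are shown with the site in capitals, as members of the list that peaked at 2 g/L. They lie at chr8:75109336-75109383 on the plus strand and chr1:128359784-128359831 on the minus strand, and in Mcm6 the site reads on the opposite strand.
Mcm5: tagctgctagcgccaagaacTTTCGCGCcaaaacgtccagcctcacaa
Mcm6: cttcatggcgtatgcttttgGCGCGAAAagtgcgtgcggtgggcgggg

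Other peaks at 2 g/L came from varied genes. Cenpm, a kinetochore protein, was at 0.632 to 1.35 RPKM in controls (median 0.845), 0.562 to 1.22 at 1 g/L (median 0.798), 1.41 to 2.91 at 2 g/L (median 2.27) and 0.49 to 1.29 at 3.5 g/L (median 0.62). Every 2 g/L library lay above every other library, with differences of 0.72 from control (adjusted p = 6.54e-05) and 0.87 from 3.5 g/L (SE 0.13, adjusted p = 0.000144). Cxcl1, a chemokine that attracts neutrophils, had differences of 0.69 (adjusted p = 0.0126) and 1.26 (adjusted p = 0.000978). Neutrophil marker transcripts, 10 in the table, summed to 0.749 to 1.51 RPKM in controls, 0.948 to 2.23 at 2 g/L and 0.684 to 0.962 at 3.5 g/L, and their part in the Cxcl1 peak was not tested. The urinary protein Mup2 had differences of 1.04 and 1.29 (adjusted p = 0.0193 and 0.0246). Of 58 tested histone genes, 8 were resolved peaks at 2 g/L (all genes, 2.42%), among them Hist1h3g (0.77 and 0.71). Histone genes are near-identical copies, so single members are uncertain.

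Dips at 2 g/L were fewer and included regulators of bile acid synthesis. Nr0b2 (SHP), a repressor of bile acid synthesis genes, was at 13.3 to 20.3 RPKM in controls (median 16.6), 5.93 to 17 at 1 g/L (median 13.2), 3.82 to 9.2 at 2 g/L (median 6.77) and 11.4 to 16.9 at 3.5 g/L (median 13.6). The 2 g/L libraries lay below every control and every 3.5 g/L library. The differences were −1.25 from control (adjusted p = 2.41e-05) and −1.01 from 3.5 g/L (SE 0.20, adjusted p = 0.00253). Cyp39a1, an oxysterol 7-alpha-hydroxylase, was at 6.55 to 9.49 RPKM in controls (median 8.32), 4.02 to 8.87 at 1 g/L (median 5.5), 1.88 to 7.08 at 2 g/L (median 2.77) and 5.14 to 14.3 at 3.5 g/L (median 8.25). One 2 g/L library overlapped the controls, and the differences were −1.13 (adjusted p = 0.000313) and −1.17 (adjusted p = 0.00241). Cyp7a1, the rate-limiting enzyme of bile acid synthesis, was classed as straight and rising (slope 0.34 log2 per g/L, SE 0.088, adjusted p = 0.00242), although its highest median was at 2 g/L, 2.27 to 4.54 RPKM in controls (median 2.92), 2.03 to 11.8 at 1 g/L (median 4.17), 6.26 to 20.6 at 2 g/L (median 10.2) and 3.8 to 17.2 at 3.5 g/L (median 7.21). Cyp8b1, the enzyme of cholic acid formation, had no called term, at a slope of −0.094 log2 per g/L, SE 0.045, adjusted p = 0.0806.

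Hspa1b, an inducible cytosolic heat shock protein, fell at all doses and came back in part. It was at 6.92 to 19.4 RPKM in controls (median 13.7), 1.65 to 6.06 at 1 g/L (median 3.09), 1.1 to 3.11 at 2 g/L (median 1.45) and 2.03 to 5.95 at 3.5 g/L (median 4.09). No treated library reached the controls, and the difference at 2 g/L was −2.37 from control (adjusted p = 2.45e-07) and −0.85 from 3.5 g/L (adjusted p = 0.0427). Its near-identical neighbour Hspa1a levelled off while falling, and reads of the pair are uncertain. Dnajb1 and Bag3, co-chaperones of the same response, were dips by the fitted parabola but were not resolved. By contrast the mitochondrial chaperones Hspd1 and Hspe1, which share 1 promoter region, levelled off or peaked while rising. The Hspe1 peak was not resolved either. Hspe1 was at 31.2 to 45.3 RPKM in controls (median 39.9), 40.9 to 60.8 at 1 g/L (median 54), 53.6 to 81.5 at 2 g/L (median 73.7) and 42.6 to 69.3 at 3.5 g/L (median 61.7). Its bow was 0.48, SE 0.097, adjusted p = 0.00259. The heat shock element, searched on either strand as GAA, TTC and GAA with any 2 bases between neighbours, was in 4 of 14 heat shock genes with a window (28.6%) and in 33 of 4907 tested genes (0.673%). It was 1 of 20 motifs searched. The stretches around the elements of Hspd1 and Hspe1 overlap, so 1 region is counted for both genes. The Hspe1 stretch at chr1:55088039-55088091 on the plus strand is shown with the element in capitals.
Hspe1: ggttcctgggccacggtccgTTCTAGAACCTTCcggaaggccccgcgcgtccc

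Turns at 1 g/L had their extreme at the lowest dose tested. Bhlhe40, a repressor in the circadian clock, lies on chromosome 6, 108660629 to 108666925, plus strand. It was at 5.63 to 14.5 RPKM in controls (median 12), 3.06 to 4.34 at 1 g/L (median 3.67), 6.45 to 12.3 at 2 g/L (median 9.23) and 4.51 to 14.9 at 3.5 g/L (median 8.78). Every 1 g/L library lay below every library of the other doses, and the differences were −1.30 from control (adjusted p = 0.00111) and −0.96 from 3.5 g/L (SE 0.23, adjusted p = 0.00238). The mean at 2 g/L was 0.53 above the parabola (adjusted p = 0.00302), so the turn was sharper than a parabola. Within tags it was lower at 1 g/L than in controls by −1.39 (adjusted p = 0.0143) and higher at 2 than at 1 g/L by 1.00 (adjusted p = 0.0227).

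Lpin2, a phosphatidate phosphatase related to Lpin1, went down at 1 g/L and then up. It was at 20.6 to 29.9 RPKM in controls (median 26.2), 11.9 to 16.3 at 1 g/L (median 12.9), 21.4 to 42.9 at 2 g/L (median 33.8) and 58.6 to 76.3 at 3.5 g/L (median 69.1). The 1 g/L libraries lay below all others and the 3.5 g/L libraries above all others. It differed by −0.89 from control at 1 g/L (adjusted p = 0.000122), and the mean at 3.5 g/L was above control by 1.37. Both turns held within tags, at −1.05 (adjusted p = 0.000248) and 1.08 (adjusted p = 7.58e-05).

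Fkbp5, a co-chaperone induced by glucocorticoids, was at 6.41 to 10.1 RPKM in controls (median 8.08), 1.84 to 4.38 at 1 g/L (median 3.43), 3.26 to 5.12 at 2 g/L (median 4.61) and 4.29 to 6.03 at 3.5 g/L (median 4.67). No treated library reached the controls. The differences were −1.08 from control at 1 g/L (adjusted p = 1.96e-05) and −0.49 from 3.5 g/L (adjusted p = 0.00577). Ccrn4l (nocturnin), a rhythmic RNA-processing enzyme, had differences of −0.94 and −1.11 (adjusted p = 0.0274 and 0.00249), with overlapping ranges. Csad, the decarboxylase of taurine synthesis, had differences of −0.72 and −1.03 (adjusted p = 0.0243 and 0.000334). Within L1 Fkbp5 was called lower at 1 g/L than in controls, by −1.13 (adjusted p = 0.000475). Ccrn4l and Csad were not called there (adjusted p = 0.157 and 0.0735). From 1 to 2 g/L within L2 no return was called for Fkbp5 (0.27, adjusted p = 0.289), Ccrn4l (0.52, adjusted p = 0.325) or Csad (−0.05, adjusted p = 0.922). Of the 42 dips at 1 g/L, 17 were called within L1 against control (all genes, 1.41% lower) and 13 within L2 against 2 g/L (all genes, 10.6% higher), contrasts that reuse the 1 g/L values by which the dips were chosen. Where only L1 libraries stood for 1 g/L, 17 dips were resolved there, 14 of them among the 42. With only L2 libraries 8 were resolved, 8 of them among the 42. Fewer libraries stand at 1 g/L in both settings.

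Peaks at 1 g/L were the rarest turn in the main fit, but not in every alternative. Hsd17b2, which oxidizes oestradiol and testosterone, was at 59.5 to 79.8 RPKM in controls (median 70.5), 85.1 to 113 at 1 g/L (median 101), 71 to 106 at 2 g/L (median 94) and 43.4 to 73.1 at 3.5 g/L (median 60.9). The 1 g/L libraries lay above every control and every 3.5 g/L library. The differences were 0.52 (adjusted p = 0.00569) and 0.75 (SE 0.11, adjusted p = 1.44e-05). From 1 to 2 g/L within L2 Hsd17b2 differed by −0.1, which was not called (adjusted p = 0.686). The tight junction protein Cldn1 was at 22.9 to 28.1 RPKM in controls (median 24.8), 29.2 to 38.5 at 1 g/L (median 31.7), 18.7 to 26.3 at 2 g/L (median 22.1) and 14.3 to 21.8 at 3.5 g/L (median 17.8). Every 1 g/L library exceeded all other libraries. The BMP receptor Acvr1 had differences of 0.33 and 0.36 (adjusted p = 0.00972 and 0.000938), and the receptor kinase Grk5 of 0.31 and 0.66 (adjusted p = 0.0457 and 1.36e-05). Where only L1 libraries stood for 1 g/L, 6 peaks were resolved there, 5 of them among the 26. With only L2 libraries 43 were resolved, 15 of them among the 26, against 8 dips at 1 g/L. Without the 1 g/L library 49 there were 52 such peaks. Under quantile normalization there were 50, against 41 dips at 1 g/L.

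**Figure D5:**
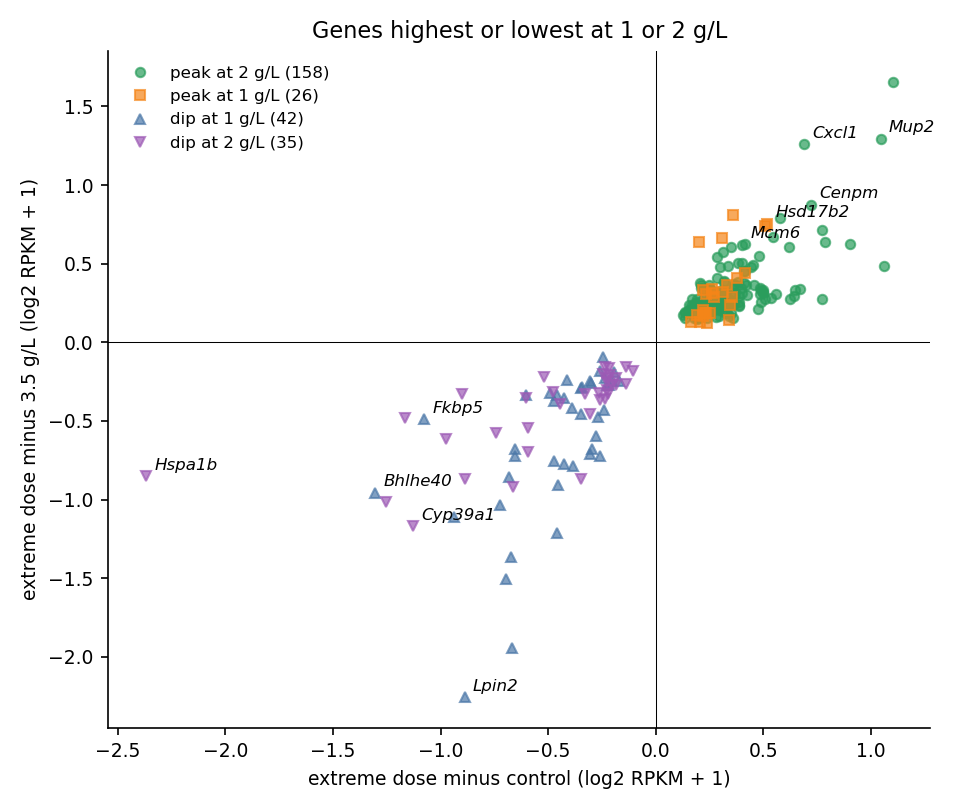
Genes with a resolved peak or dip, 1 point per gene, by the difference of the extreme dose from control (x axis) and from 3.5 g/L (y axis), both in log2(RPKM + 1). The 158 peaks at 2 g/L and 26 peaks at 1 g/L lie in the upper right, the 42 dips at 1 g/L and 35 dips at 2 g/L in the lower left, with Hspa1b farthest to the left and Lpin2 lowest.

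Egr1, an immediate early transcription factor, had its highest mean at 1 g/L and a lower mean at 2 than at 3.5 g/L. It was at 0.207 to 0.983 RPKM in controls (median 0.353), 1 to 8.61 at 1 g/L (median 4.34), 0.277 to 3.08 at 2 g/L (median 1.42) and 1.11 to 6.01 at 3.5 g/L (median 3.54). The 1 g/L libraries lay above every control, the 2 g/L range reached down into the controls, and the 3.5 g/L libraries again lay above them. Egr1 was classed as a step from a called slope (0.28 log2 per g/L, SE 0.089, adjusted p = 0.0101) and a mean at 2 g/L below the parabola by −0.63, SE 0.14, adjusted p = 0.0109. Within L1 it was higher at 1 g/L than in controls by 2.26 (adjusted p = 0.00133). The difference of −0.49 from 1 to 2 g/L within L2 was not called (adjusted p = 0.393). At 1 g/L itself L2 minus L1 was −1.04, also not called (adjusted p = 0.646). Mup20, the urinary pheromone darcin, also had its highest median at 1 g/L, at 81.9 to 456 RPKM in controls (median 235), 452 to 835 at 1 g/L (median 638), 132 to 784 at 2 g/L (median 357) and 144 to 749 at 3.5 g/L (median 462). Its slope was 0.15 log2 per g/L, SE 0.12, adjusted p = 0.31, and it was left without a shape. Gstz1, the enzyme that metabolizes DCA and that DCA inactivates, was at 109 to 131 RPKM in controls (median 117), 121 to 141 at 1 g/L (median 131), 120.3 to 144 at 2 g/L (median 127) and 118 to 130.3 at 3.5 g/L (median 122). No term was called, and its bow was 0.13, SE 0.044, adjusted p = 0.0502.

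Markers of other cell types were set beside these shapes. Of 13 tested Kupffer cell markers 10 had a called falling slope and no called bend (all genes, 8.73%). The list medians were −0.106, −0.0377 and −0.415 at 1, 2 and 3.5 g/L, so most of the fall was at 3.5 g/L. The summed level of these markers was 114 to 164 RPKM in controls, 109 to 134 at 1 g/L, 79.4 to 168 at 2 g/L and 77.6 to 106 at 3.5 g/L. The genes C1qa, C1qb and C1qc stand on the marker list and not on the complement list, and the part of macrophages in the falls of complement and interferon genes was not tested. Erythroid markers, 9 in the table, had medians of 723, 508, 386 and 342 RPKM from control to 3.5 g/L, with overlapping ranges. T, B and NK cell markers summed to 0.709 to 9.19 RPKM over all libraries. Endothelial and stellate markers overlapped between all doses.

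Hepatocyte zone markers had their lowest medians at 2 g/L in both zones, 1314 RPKM for pericentral and 1561 RPKM for periportal sums. Pericentral markers summed to 1635 to 2109 RPKM in controls, 1376 to 1744 at 1 g/L, 1109 to 1469.6 at 2 g/L and 1368 to 1611 at 3.5 g/L. Periportal markers summed to 1727 to 2133, 1599.8 to 1876, 1326 to 1745 and 1535 to 1781 RPKM. Of 8 tested pericentral markers 5 fell and 1 rose (all genes, 13.6% and 40.3%). By class 3 were falling steps (all genes, 0.673%) and 2 were dips (all genes, 1.94%), and 1 member was a resolved peak. Cyp1a2, which metabolizes caffeine, and Lect2 were among the steps, with slopes of −0.35 (adjusted p = 3.11e-10) and −0.27 (adjusted p = 9.84e-07). Cyp2e1, which oxidizes ethanol, was a dip with a bow of −0.34, SE 0.074, adjusted p = 0.00467. The zone sums and the male-biased and bile acid genes moved over the same doses, and the part of zonation in those results was not tested.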

How the data were processed

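Liver RNA from 24 samples, 6 per dose, was measured by stranded total RNA sequencing with ribosomal RNA removed, per the labels' protocols. The values are RPKM per gene and library in 1 table that the authors deposited. CASAVA, STAR 2.4, Partek and the build mm10 are listed, with no roles, per the submitters' processing notes. The gene annotation, and whether counting used strand, are not given in the sources used here, so overlapping genes and near-identical copies may share reads. Zeros are listed as 1e-04 RPKM. The table as held ends in symbol order at Olfr272, and later genes were not analysed here. From 15596 lines, 13 with date-like symbols and 1 incomplete line were dropped, which left 15582 genes. Of the samples' columns, 0 were unused.

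Depth was estimated from the steps between low RPKM values, since 1 read is worth a fixed amount per gene and library. Of 3125 low genes, 1868 (59.8%) had values that were all whole reads within 0.02 of their number of reads, and relative depths were 0.951 to 1.131. With annotated lengths of 1724 genes the median library held about 24700000 reads (interquartile range over genes 18000000 to 28200000), so that 0.5 RPKM in a gene of 2 kb is about 24.7 reads. Counts were not recovered for all genes, and no count test was run.

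The 6540 genes that reached 0.5 RPKM in 6 libraries or more were analysed as log2(RPKM + 1). limma 3.58.1 in R 4.3.3 fitted linear, quadratic and cubic orthogonal terms of dose to the 24 libraries, with a spread that depended on level, two-sided tests and Benjamini-Hochberg adjustment over 6540 genes at 0.05. Standard errors (SE) come from this fit. Fitting and calling were tested on simulated data. Named genes were the 4 with the largest range of dose means per class and direction, or the largest smaller arm for resolved turns, at 2 RPKM or more in 1 dose mean and with a named symbol, plus a set of index genes and up to 3 members per list. Members, lists and shapes were chosen with earlier results of these data known, so counts over lists are descriptions. Some genes, and the list of cholesterol synthesis, are not reported here. Title tags were left out of the fit and used in alternatives, as were another pseudocount, filter, scaling, dose axis and each library left out. Contrasts within tags and list counts without single libraries were added after seeing the data. Promoter windows (250 bases before to 50 after the start, RefSeq, GRCm38.p6) matched 4907 of 6540 genes (75%) by symbol, and gene positions come from an annotation of GRCm38, the build that mm10 denotes.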

Additional observations from a re-analysis of the deposited data

Results flagged for a closer look

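Each of 77 named genes was examined for a library far from the other 5 of its dose, which gave 308 groups. In 17 of them the gap to the nearest other library was a larger share of the whole range than Dixon's 95% critical value allows, where chance, at 1 in 20, gives about 15.4. The causes were not tested.

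In controls, library 8 was far above the others for the fibrinogens, with Fga at 2167 RPKM (others 1133 to 1331), Fgb at 3049 (1590 to 1862) and Fgg at 2530 (1382 to 1686). Library 3 was high for Ces1b at 93.9 RPKM (others 45.95 to 57.78) and low for F2 at 416.4 (others 443.3 to 458.4). Library 7 was high for Mup2 at 26.95 RPKM (others 20.11 to 22.14).

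At 1 g/L, library 54 was high for Cyp2a4 at 1.44 RPKM (others 0.07823 to 0.3313) and Cyp3a59 at 15.83 (others 7.676 to 9.015), and low for Mup21 at 43.88 (others 87.69 to 114.7). Library 49 was low for Lpin1 at 3.874 RPKM (others 7.488 to 9.734). Library 52 was high for Herpud1 at 95.6 RPKM (others 47.54 to 61.57).

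At 2 g/L, library 78 was low for the PPARα target Acaa1b at 259.4 RPKM (others 719.3 to 1156) and for Elovl3 at 28.78 (others 68.23 to 89.62), and library 75 was high for Mcm4 at 2.513 (others 1.082 to 1.326). At 3.5 g/L, library 97 was high for Cxcl1 at 1.025 RPKM (others 0.4353 to 0.5756) and Cyp2b10 at 1.153 (others 0.1284 to 0.3636), and library 98 was low for Acot1 at 43.31 (others 82.03 to 112.7).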

How the results depend on the processing

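No paired analysis was possible because replicate numbers are not shared between doses. The counts moved most with scaling, the dose axis and the title tags. Median-ratio scaling gave 1645 rising and 1613 falling slopes, 528 negative and 361 positive bows and 300 levelling genes, and quantile normalization gave 1494, 1614, 487, 494 and 323. On a log2(dose + 1) axis there were 327 positive bows, 527 cubic calls, 256 steepening, 45 levelling and 362 turning genes and 337 steps. With title tags as terms, where the dose terms rest on 0, 1 and 2 g/L alone, there were 551 rising and 221 falling slopes and 150 negative and 67 positive bows. With only L1 libraries at 1 g/L there were 112 cubic calls and 66 steps, and with only L2 libraries 32 and 13, where fewer libraries stand at that dose.

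With 1 library left out, counts ranged from 3681 to 3963 varying genes, 2489 to 2710 rising and 815 to 908 falling slopes, 224 to 333 negative and 607 to 1213 positive bows, 200 to 510 cubic calls, 2069 to 2467 straight, 64 to 91 steepening, 320 to 596 levelling and 445 to 775 turning genes, 122 to 260 steps and 167 to 290 resolved peaks or dips. The lowest counts of positive bows, levelling genes and resolved turns came without the 2 g/L library 75, the fewest cubic calls and steps without the 1 g/L library 53 and the most without the 2 g/L library 78.

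Bows reversed on the log2(dose + 1) axis in Acaa1b (−0.29), Cyp4a10 (−1.47), Cyp4a14 (−1.69) and Nr1d1 (−0.15), where the axis itself stretches low doses. With title tags as terms bows reversed in Acaa1b (−3.5), Atp5k (−0.16), Ccnd1 (−2.16), Cenpm (−1.3), Ces1b (0.88), Cxcl1 (−0.52), Cyp39a1 (0.31), Cyp3a59 (1.93), Cyp4a10 (−8.78), Cyp4a14 (−10.3), Hist1h3g (−0.78), Mug1 (0.60), Nr0b2 (0.68) and Nr1d1 (−0.53), and slopes in C4b (0.027), Egr1 (−1.27), Fkbp5 (0.67) and Lpin1 (0.19). With 1 library left out, 0 of the called terms of named genes reversed, 7 of 1320 slopes and 49 of 888 bows lost their call.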

Other observations

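Genes of ribosome biogenesis, which make and assemble ribosomal subunits in the nucleolus, rose in 19 of 28 tested members (all genes, 40.3%) and fell in 0, with 14 straight and list medians of 0.18, 0.28 and 0.24 at 1, 2 and 3.5 g/L. Under median-ratio scaling 13 rose and 2 fell, and under quantile normalization 11 rose and 4 fell. Targets of p53, the damage-responsive transcription factor, rose in 7 of 11 tested members (all genes, 40.3%), Mdm2, Gdf15, Bax, Fas, Aen, Ei24 and Ccng1, while Cdkn1a, the cell cycle inhibitor p21, had a slope of −0.10 (limma adjusted p = 0.243). Rises numbered 6 and 5 under these scalings, with 1 and 0 falls. Of 16 tested genes of the ATF4 response to amino acid shortage, 8 rose and 3 fell (all genes, 40.3% and 13.6%), with list medians of 0.029, 0.13 and 0.24. The rises numbered 6 and 5 under these scalings, with 4 falls in each. Immediate early genes, the first to respond to growth signals, rose in 8 of 13 tested members (all genes, 40.3%), with medians of 0.11, 0.27 and 0.61, among them Jun as a step and Atf3, Junb, Jund and Myc as straight. Glucose metabolism genes rose in 10 of 17 tested members and fell in 1 (all genes, 40.3% and 13.6%), and 4 were resolved dips, Foxo1 and Gckr at 2 g/L (all genes, 0.535%) and Foxo3 and G6pc at 1 g/L (all genes, 0.642%). Glucocorticoid targets fell in 5 of 13 tested members (all genes, 13.6%) and rose in 2 (all genes, 40.3%), with medians of −0.53, −0.27 and −0.59.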
